A study of Mus musculus with 4 samples.

Results

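Foxp3-positive T cells were examined in single-cell RNA sequencing libraries of T cells sorted from the meninges, the membranes around the brain, and from the choroid plexus, the tissue that makes cerebrospinal fluid. There were 4 libraries, 1 for each tissue from young (10 weeks) and from aged (18 months) female C57BL/6 mice, each pooled from 5 mice. Cells of both the CD4 and the CD8 lineage were collected by flow cytometry before capture, and transcripts were counted from their 5′ ends as UMIs, which mark single captured molecules. Cells were selected on their own transcripts: 200 to 7000 genes detected, at most 5% mitochondrial UMIs, a UMI of the T-cell receptor complex genes Cd3d, Cd3e and Cd3g (any 1 of them), none of Cd8a or Cd8b1, and at least 1 UMI of Foxp3. This rule found 217 cells among 4801 barcodes, 4208 cells past the filters and 2872 CD8-negative T cells. There were 32 Foxp3-positive cells in the young meninges, 11 in the young choroid plexus, 126 in the aged meninges and 48 in the aged choroid plexus. The 2655 CD8-negative T cells with no Foxp3 UMI (Foxp3-negative cells) of the same libraries served for comparison. Because each condition is 1 library, age and tissue were not tested against each other as conditions, and intervals given below cover counting error only, not differences between mice.

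Regulatory T cells are CD4 T cells that hold other immune cells in check. The transcription factor Foxp3 maintains their program, they depend on interleukin 2 taken up through a receptor that contains Il2ra, and they restrain other cells through molecules such as Ctla4. In tissues, some of them make Areg (amphiregulin), a growth factor of the EGF family known for its part in repair.

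The 4 libraries held 3737140, 2295950, 4262917 and 3957717 UMIs (in the order young meninges, then young choroid plexus, then aged meninges and last aged choroid plexus, kept below where no library is named), and the Foxp3-positive cells together contributed 123155, 48082, 403653 and 193195 of them. Foxp3 was selected on and is given as a description. It had 58 UMIs in the Foxp3-positive cells of the young meninges, 17 in the young choroid plexus, 203 in the aged meninges and 68 in the aged choroid plexus, with at most 5 UMIs in any cell. Of the 217 cells, 132 had 1 Foxp3 UMI and 85 had at least 2, so most stood at the edge of the rule. Foxp3-positive cells were the deeper ones in each library. Their median was 3366.5 against 3068 UMIs per Foxp3-negative cell in the young meninges, 4546 against 2840 in the young choroid plexus, 2520.5 against 2144 in the aged meninges and 4159 against 2518 in the aged choroid plexus. Depth thus moved with the selection. Cells were thinned to 1000 UMIs, shares were taken in bins of UMIs per cell, and a fit was limited to 1500 to 5000 UMIs. The part of depth in the differences below was not tested further. The libraries shared between 0 and 3 barcodes in each pair, and none of the shared barcodes was a Foxp3-positive cell.

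Promoter sequences are shown for Foxp3, for Tnfrsf9, which was higher in these cells (below), and for Cish, which was called higher by edgeR but not by DESeq2, because their windows hold letters of the kind that STAT5, the transcription factor downstream of the interleukin 2 receptor, binds. They were picked for these matches: the other windows of Foxp3 and Tnfrsf9 in the table and the windows of Il2ra, Ctla4, Areg and Tnfrsf4 held none. Each window runs from 250 bases before to 50 bases after a RefSeq transcript start on GRCm38.p6, 5′ to 3′ on the plus strand, and capitals mark TTCNNNGAA, which was searched on both strands. The Foxp3 window is chrX:7580233-7580532, at the downstream of its starts in the table, inside the gene (chrX:7573644-7595245), and its match began 139 bases before the start. The Tnfrsf9 window is chr4:150927749-150928048, also at the downstream of its starts, and its match began 136 bases before the start with the same letters as that of Foxp3. The Cish window is chr9:107296409-107296708, with a pair of matches that begin at the start itself.
Foxp3: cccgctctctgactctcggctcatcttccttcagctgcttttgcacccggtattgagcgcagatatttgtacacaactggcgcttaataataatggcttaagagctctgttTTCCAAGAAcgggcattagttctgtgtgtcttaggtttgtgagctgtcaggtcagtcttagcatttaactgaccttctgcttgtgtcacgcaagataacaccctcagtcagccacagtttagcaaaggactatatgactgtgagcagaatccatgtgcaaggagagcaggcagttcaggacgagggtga
Tnfrsf9: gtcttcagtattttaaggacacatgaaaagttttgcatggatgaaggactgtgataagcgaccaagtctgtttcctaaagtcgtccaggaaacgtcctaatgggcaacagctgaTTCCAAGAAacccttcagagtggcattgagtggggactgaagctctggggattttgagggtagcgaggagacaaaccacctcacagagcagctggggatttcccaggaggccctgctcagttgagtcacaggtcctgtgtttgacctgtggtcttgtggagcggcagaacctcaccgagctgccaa
Cish: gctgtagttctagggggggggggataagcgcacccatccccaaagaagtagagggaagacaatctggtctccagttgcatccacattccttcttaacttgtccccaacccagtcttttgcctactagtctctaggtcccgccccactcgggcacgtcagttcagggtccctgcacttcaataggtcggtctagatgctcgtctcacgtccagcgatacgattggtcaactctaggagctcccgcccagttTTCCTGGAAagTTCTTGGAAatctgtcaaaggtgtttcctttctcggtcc

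TTCNNNGAA was present in at least 1 window of 2582 of the 27025 genes of the RefSeq table (9.55%), and the forkhead motif TGTTTAC in 1095 (4.05%). These 3 windows held no TGTTTAC. Only 104 of the 141 genes that were higher in Foxp3-positive cells (73.8%) had an entry, under the 80% needed, so the motif shares of these genes are void and were not read. The matches describe letters in the windows and say nothing on whether a factor binds there.

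The first question was how large a share of CD8-negative T cells carried Foxp3 in each library. The share was 4.30% in the young meninges (32 of 745 cells, 95% Clopper-Pearson interval 2.96 to 6.01%) and 11.5% in the aged meninges (126 of 1097, 9.66 to 13.5%). It was 2.49% in the young choroid plexus (11 of 441, 1.25 to 4.42%) and 8.15% in the aged choroid plexus (48 of 589, 6.07 to 10.7%). Thus both aged libraries had a higher share than both young libraries, with intervals that did not overlap between the ages within a tissue, while the intervals of the 2 tissues overlapped at each age. In the choroid plexus the intervals of the ages overlapped when a Cd4 UMI was required (0.660 to 6.05% young, 5.37 to 13.1% aged) and when 2 Foxp3 UMIs were (0.141 to 1.98%, 1.56 to 4.37%).

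The same order held after thinning, but not in the middle bin of UMIs per cell. With each cell thinned to 1000 UMIs, which left out 8, 3, 31 and 14 shallower cells, the shares were 1.63% (young meninges) and 0.685% (choroid plexus, also young) against 6.29% and 3.48% for the aged tissues. In the middle bin they were 3.18% and 1.25% (young) against 8.05% and 2.52% (aged), so the aged choroid plexus lay below the young meninges. Its interval there (1.10 to 4.91%) overlapped that of the young choroid plexus (0.342 to 3.17%). In the lowest and highest bins both aged shares lay above both young ones, but the choroid plexus intervals again overlapped. For comparison, Foxp3 was counted in CD8 T cells, which had a Cd8a or Cd8b1 UMI and no Cd4 UMI and had medians of 3664.5, 3460, 2811 and 3124.5 UMIs. No Foxp3 UMI was found in 260 CD8 T cells of the young meninges (3 counts would be 1.15%) or in 167 of the young choroid plexus (1.80%). In the aged libraries, 9 of 281 (3.20%) and 17 of 476 (3.57%) carried one, and 1.09% and 1.07% at 1000 UMIs. At full depth each share in CD8-negative cells lay above the share in CD8 T cells of its own library. The intervals overlapped in the young choroid plexus (1.25 to 4.42% against 0 to 2.18%). At 1000 UMIs the young choroid plexus share of 0.685% was below the 1.83% that 3 counts would be among its 164 CD8 T cells, so a difference from CD8 T cells was not detectable there. At that depth the intervals also overlapped in the young meninges (0.844 to 2.83% against 0 to 1.41%). They did so in the aged choroid plexus as well (2.14 to 5.32% against 0.347 to 2.47%). The plot of shares by library shows the values at full depth and at 1000 UMIs.

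**Figure D1:**
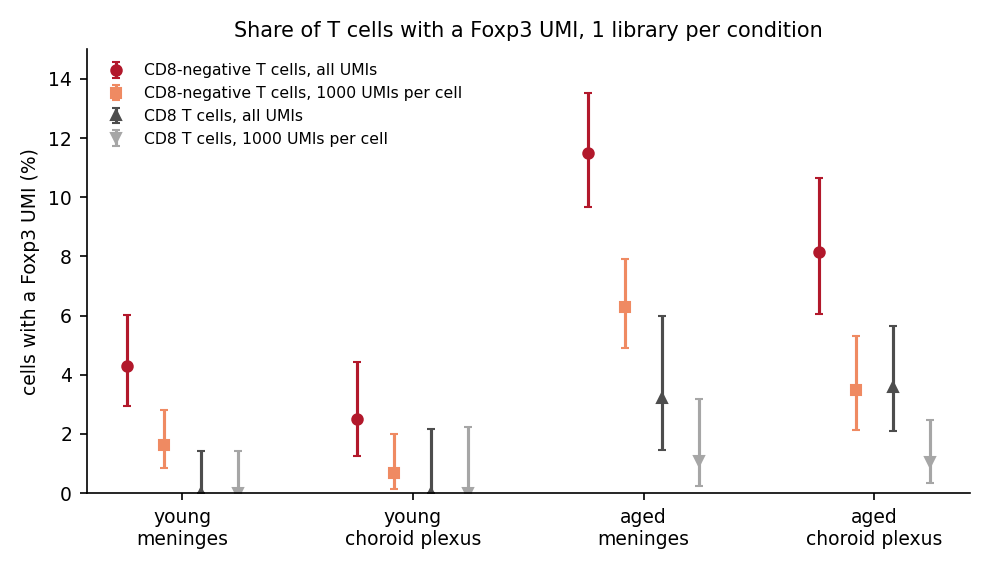
Percentage of T cells with at least 1 Foxp3 UMI in each of the 4 libraries, for CD8-negative T cells (circles, all UMIs, and squares, 1000 UMIs per cell) and CD8 T cells (upward triangles, all UMIs, and downward triangles, 1000 UMIs per cell). Bars are 95% Clopper-Pearson intervals over cells. The 2 aged libraries lie at 11.5 and 8.15%, above the young ones at 4.30 and 2.49%, and the order of the 4 libraries is the same after thinning.

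The 26 CD8 T cells with a Foxp3 UMI carried the other regulatory markers too. At least 2 of the 5 markers Ikzf2, Il2ra, Ctla4, Tnfrsf4 and Areg were found in 23 of these 26 cells, against 67 of all 1184 CD8 T cells (5.66%). The 26 cells came from the aged libraries, where the CD8 share is thus not a measure of background alone, and another 15 T cells had Cd4, Cd8 and Foxp3 UMIs together. The 26 were deeper, with medians of 3912 (aged meninges) and 5265 UMIs (aged choroid plexus) against 2811 and 3124.5 in all CD8 T cells. Their median doublet scores were higher too, at 0.128 and 0.129 against 0.0717 and 0.0825. The part of depth and doublets in their markers was not tested.

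The label was then checked against those 5 markers, which the rule did not use. At least 2 of them were found in 177 of 217 Foxp3-positive cells (81.6%, 75.8 to 86.5%) and in 422 of 2655 Foxp3-negative cells (15.9%, 14.5 to 17.3%). By library, the share of Foxp3-positive cells with at least 2 markers was 56.3% of 32 cells in the young meninges, 54.5% of 11 in the young choroid plexus, 88.9% of 126 in the aged meninges and 85.4% of 48 in the aged choroid plexus. The Foxp3-negative cells of the same libraries were at 5.33, 1.63, 27.1 and 21.1%. Across the edge of the rule, at least 2 markers were found in 101 of the 132 cells with 1 Foxp3 UMI (76.5%) and in 76 of the 85 with at least 2 (89.4%), beside the 15.9% with none. The pooled share at 1 UMI was not reached in the young libraries. There, at least 2 markers were found in 8 of 18 cells with 1 Foxp3 UMI in the meninges (44.4%) and 3 of 8 in the choroid plexus (37.5%). With at least 2 Foxp3 UMIs they were found in 10 of 14 and 3 of 3. In the aged meninges the values were 62 of 74 (83.8%) and 50 of 52 (96.2%). In the aged choroid plexus the order was the other way, with 87.5% of 32 and 81.3% of 16 cells. A Cd4 UMI was detected in only 75 of the 217 cells, and at least 2 markers were found in 113 of 142 cells with no Cd4 UMI (79.6%) and in 64 of 75 with one (85.3%). The cells are called Foxp3-positive T cells here. Ikzf2, Il2ra, Ctla4 and Tnfrsf4 were present in every library, and Areg in all but the young meninges.

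The levels of the markers are given in CPM, the UMIs of a gene scaled to a fixed total over the summed cells. Ikzf2 (Helios, a transcription factor of regulatory T cells, chr1:69531214-69687245) stood at 357 CPM in Foxp3-positive against 35.6 in Foxp3-negative cells of the young meninges, 250 against 17.6 in the young choroid plexus, 763 against 180 in the aged meninges and 730 against 179 in the aged choroid plexus. Foxp3-positive cells were above in each library, and the level was higher in the aged libraries in both classes. Tnfrsf4 (OX40, a costimulatory receptor, chr4:156013843-156016612) stood at 658 against 64.6, 166 against 21.4, 825 against 246 and 1108 against 316 CPM in the same order. Tnfrsf4 was thus lowest in the young choroid plexus in both classes. The levels of Ctla4 (an inhibitory receptor that competes for CD80 and CD86, chr1:60887000-60915832) were 374 against 31.2, 62.4 against 10.7, 354 against 148 and 176 against 48.9 CPM. Those of Il2ra (the alpha chain of the interleukin 2 receptor, chr2:11642807-11693193) were 48.7 against 17.8, 208 against 11.4, 102 against 32.5 and 166 against 35.2 CPM. For both genes every library placed the Foxp3-positive cells above, although the young choroid plexus values rest on 3 UMIs of Ctla4 and 10 of Il2ra.

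Areg (chr5:91139599-91148432) varied most between libraries. It stood at 0 in Foxp3-positive against 14.7 CPM in Foxp3-negative cells of the young meninges, 20.8 against 3.05 in the young choroid plexus, 979 against 249 in the aged meninges and 72.5 against 22.2 in the aged choroid plexus. Foxp3-positive cells of the aged meninges were thus far above those of every other library: 61 of 126 cells had an Areg UMI (48.4%), against 6 of 48 in the aged choroid plexus, 1 of 11 in the young choroid plexus and 0 of 32 in the young meninges (3 counts would be 24.4 CPM). The measured level in the aged meningeal cells was 40.2-fold that floor, which is not a lower limit of the difference. The lower Poisson limit of the aged level was 884 CPM, and the upper limit of the young level was 30.0 CPM. These limits do not allow for UMIs that lie together in the same cells. Areg was also detected in 13.7% of the 971 Foxp3-negative cells and 5.69% of the 281 CD8 T cells of the aged meninges. The marker plot shows these levels by library.

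**Figure D2:**
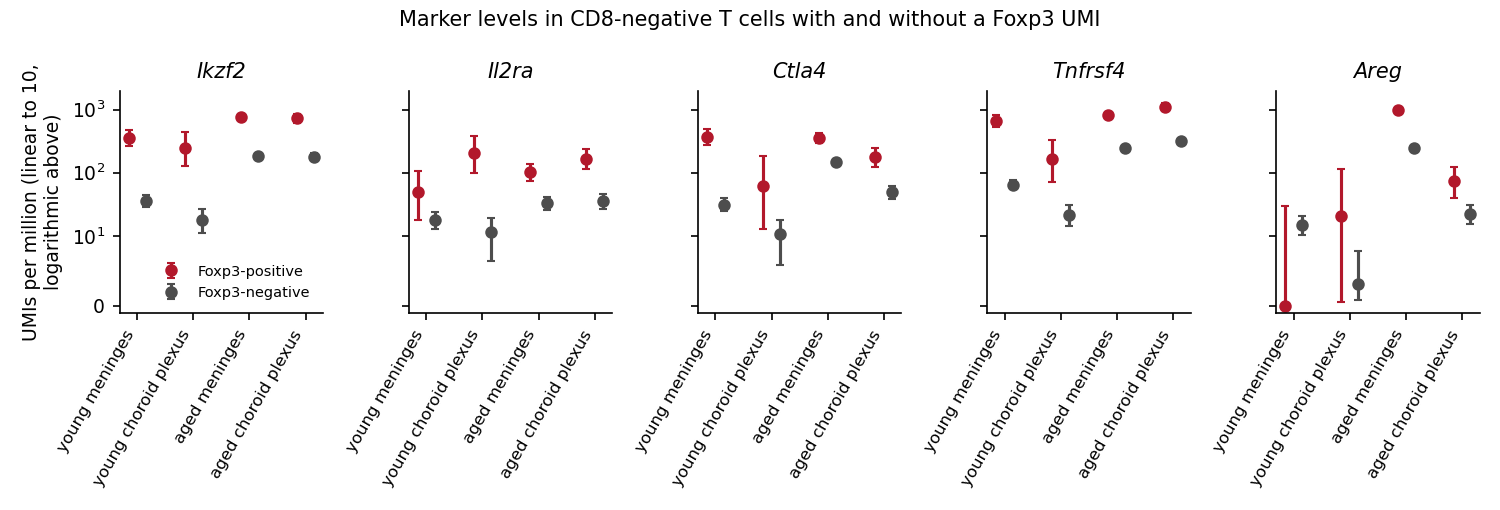
Levels of 5 markers in CPM (linear to 10, logarithmic above) in Foxp3-positive (red) and Foxp3-negative (grey) CD8-negative T cells of the 4 libraries, with 95% Poisson intervals. Ikzf2, Il2ra, Ctla4 and Tnfrsf4 are higher in Foxp3-positive cells in all 4 libraries, while Areg reaches 979 CPM in the aged meninges and is at 0 in the young meninges.

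The second question was which genes separated Foxp3-positive from Foxp3-negative cells. UMIs were summed over the cells of each class in each library, which gave 8 profiles, and compared with edgeR's quasi-likelihood test with the library as a block and Benjamini-Hochberg adjustment, leaving out the genes of the selection rule. Of 7079 genes tested, 141 were higher (1.99%) and 139 lower (1.96%) in Foxp3-positive cells at an adjusted p under 0.05. The median log2 fold change over all genes was -0.01. With library sizes alone in place of TMM factors this median was 0.11 and the split became 209 higher and 98 lower. DESeq2 called 52 and 42 genes, all of them among the edgeR calls. Without the aged meninges the counts fell to 49 and 28, and without the aged choroid plexus to 60 and 41. Without the young meninges, 90 genes were lower. These p-values lean on the spread shared between genes, with a median of 136.5 prior against 3 residual degrees of freedom, and an exact sign-flip test over 4 libraries cannot give a p below 0.125, so the number of libraries in each direction is given for single genes.

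Most tested genes of regulatory identity were higher. Of the 24 genes of this list, 21 were tested, 15 were higher (background 1.99%) and none was lower, with a median log2 fold change of 1.20 against -0.01 over all genes tested. The list holds the markers that define such cells, so its direction is a check of the label. Gpr83, Itgae and Swap70 did not pass the filter on low counts. Without that filter all 3 were called higher. Among the 15, Ikzf2 rose by a log2 fold change of 2.30 ± 0.16 (SE; adjusted p = 2.7e-25), Tnfrsf4 by 2.09 ± 0.15 (4.9e-24), Il2ra by 1.96 ± 0.25 (4.9e-10) and Ctla4 by 1.88 ± 0.19 (2.4e-14), each in 4 of 4 libraries by edgeR and also by DESeq2. Without the aged meninges Ctla4 was at 2.58. Each SE here and below is the absolute log2 fold change divided by the square root of the quasi-likelihood F value. It leans on the shared spread as the p-values do and is not a spread over the 4 libraries.

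Lrrc32 (GARP, which holds latent TGF-beta on the cell surface) had the largest log2 fold change of the genes named by rule, 4.31 ± 0.62 (edgeR adjusted p = 3.8e-08). Its level was 40.6 against 2.17 CPM in the young meninges, 62.4 against 1.53 in the young choroid plexus, 19.8 against 1.28 in the aged meninges and 31.1 against 0.652 in the aged choroid plexus. It rested on 3 to 8 UMIs in Foxp3-positive cells of each library, DESeq2 gave it no adjusted p, and it was above in all 4 libraries. Ikzf4 (Eos, a partner of Foxp3) rose by 2.98 ± 0.38 (adjusted p = 6.0e-10), with 56.8 against 6.51, 20.8 against 5.34, 37.2 against 4.70 and 98.3 against 9.13 CPM. The TNF receptor family members Tnfrsf9 (4-1BB), Tnfrsf1b and Tnfrsf18 (GITR) rose by 2.26 ± 0.25, 1.42 ± 0.28 and 1.14 ± 0.15. In the young choroid plexus Tnfrsf9 and Ikzf4 had 1 UMI each in Foxp3-positive cells and Tnfrsf1b 3, too few to place that library. Nrp1, Tigit, Izumo1r (folate receptor 4), Capg, Ebi3 and Cd83 completed the 15, and Cd83 had no UMI in either class in the young choroid plexus. Icos stood at 0.53 ± 0.17 with an edgeR adjusted p of 0.055 and did not pass. Il2rb, Entpd1, Nt5e, Socs2 and Rgs1 did not pass either.

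Of the molecules through which regulatory T cells act on other cells, 14 of 18 were tested, 5 were higher (background 1.99%) and none lower, with a median of 0.56. DESeq2 called 3 of them, and edgeR called 2 of 11 without the aged meninges (Lrrc32 and Ctla4). The 5 were Lrrc32, Ctla4, Ebi3 (a subunit of interleukin 35) and Tigit, which are also in the first list, and Fgl2 (a secreted fibrinogen-like protein), at 0.98 ± 0.19 (edgeR adjusted p = 5.8e-05), which was not called by DESeq2 (adjusted p = 0.059) or without the aged meninges. Tgfb1 was at 0.04 ± 0.18 and Lag3 at 0.66 ± 0.28 (adjusted p = 0.26). Il10 did not pass the filter on low counts and was not called without it.

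Of the genes of tissue repair and effector regulatory T cells, 14 of 20 were tested and 7 were higher (background 1.99%), with none lower and a median of 0.75. Klrg1 and Penk were the 2 called by DESeq2, and also the 2 called by edgeR without the aged meninges. Without the aged choroid plexus 4 were called. Klrg1 (an inhibitory receptor of effector cells) rose by 3.12 ± 0.30 (edgeR adjusted p = 8.9e-16), with 390 against 11.3 CPM in the young meninges, 62.4 against 3.05 in the young choroid plexus, 86.7 against 22.6 in the aged meninges and 41.4 against 10.4 in the aged choroid plexus. It was highest in the young meninges, where 9 of 32 cells carried its 48 UMIs. Without that library its log2 fold change was 1.98, and without the aged meninges 3.95. Penk (proenkephalin, the precursor of enkephalin peptides) rose by 2.03 ± 0.20 (adjusted p = 1.9e-15), with 146 against 6.94, 0 against 0, 151 against 43.6 and 378 against 99.8 CPM, so it was not detected in the young choroid plexus in either class.

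Areg rose by 1.69 ± 0.21 in the same fit (edgeR adjusted p = 2.8e-10), above in both aged libraries and by 1 UMI in the young choroid plexus, but not by DESeq2 (adjusted p = 1.0), nor by edgeR without the aged meninges (1.02, adjusted p = 0.67). Il1rl1 (the receptor for interleukin 33) rose by 1.24 ± 0.34, Gata3 by 0.84 ± 0.19, Batf by 0.66 ± 0.18 and Ccr8 by 0.996 ± 0.32, with edgeR adjusted p of 0.013, 0.0011, 0.015 and 0.050. None of these 4 passed with DESeq2, and Ccr8 was higher in 3 of 4 libraries. Maf, Rora, Hopx, Prdm1, Furin and Gzmb did not pass, and Nfil3, at 1.28 ± 0.41, had an adjusted p of 0.051.

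For the interleukin 2 receptor and STAT5 targets, all 16 were tested, 3 were higher (1.99% background) and 1 was lower (1.96% background), with a median of 0.37. Il2ra is described above. Pim1 (a survival kinase induced by STAT5) rose by 1.01 ± 0.15 (edgeR adjusted p = 1.25e-07), with 552 against 223, 208 against 121, 481 against 219 and 238 against 113 CPM. Cish (a feedback inhibitor of cytokine signalling, whose window is printed above) rose by 0.80 ± 0.19 (adjusted p = 0.0020), with 227 against 52.1, 125 against 37.4, 183 against 153 and 248 against 136 CPM. It was higher in all 4 libraries, by the least in the aged meninges. DESeq2 did not call it (adjusted p = 0.070), nor did edgeR without the young meninges, without either choroid plexus library or against Foxp3-negative cells with no Ccr7 UMI. The edgeR call was also lost with at least 2 Foxp3 UMIs required, at 1000 UMIs per cell and in the 2 aged libraries alone. Bcl2 (a survival factor) was at 195 against 204, 270 against 211, 102 against 270 and 166 against 397 CPM, lower by the most in both aged libraries. A dependence of this difference on age did not pass the interaction test given below. Bcl2 was called lower by edgeR (-0.98 ± 0.18, adjusted p = 3.4e-05) and not by DESeq2 (adjusted p = 0.17). EdgeR did not call it without the aged meninges, without the aged choroid plexus or at 1000 UMIs per cell. Stat5a, Stat5b, Jak1, Jak3, Il2rb and Il2rg did not pass.

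Of the 12 genes of resting or central T cells, all were tested, and 7 were lower (background 1.96%) and none higher, with a median of -0.64. Against Foxp3-negative cells with no Ccr7 UMI the median was -0.11, and of the 7 calls Tcf7 was the one left, with Ccr7 itself higher, as that reference was chosen to lack it. Without the aged choroid plexus 4 were lower (Dapl1, Igfbp4, Tcf7 and Ccr7), and 3 were at 1000 UMIs per cell and in cells of 1500 to 5000 UMIs (Igfbp4, Tcf7 and Ccr7). Ccr7 (the lymph node homing receptor) was at 252 against 587 CPM in the young meninges, 270 against 396 in the young choroid plexus, 37.2 against 77.7 in the aged meninges and 25.9 against 61.3 in the aged choroid plexus. It was thus lower in Foxp3-positive cells in every library (-1.20 ± 0.20, edgeR adjusted p = 2.9e-06), and lower in both aged than in both young libraries in both classes. Tcf7 (TCF-1) was at -1.23 ± 0.18 (adjusted p = 4.6e-08). Dapl1 (-1.86 ± 0.43) and Igfbp4 (-1.52 ± 0.21) had larger negative fold changes, and Satb1, Klf2 and Il7r smaller ones. Lef1 (-0.49 ± 0.18), S1pr1 (-0.47 ± 0.18), Foxp1, Klf3 and Bach2 did not pass.

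Of the conventional helper genes, 11 of 18 were tested and 8 were lower (background 1.96%), with a median of -1.36. DESeq2 called 3 of them, Themis, Cd40lg and Il7r, and edgeR called 5 without the aged meninges and 5 without the aged choroid plexus. Il2 (interleukin 2, which regulatory T cells are known not to make) had 0 against 12.1, 0 against 8.40, 4.95 against 40.1 and 20.7 against 27.4 CPM. Cd40lg (CD40 ligand, the helper signal to B cells) was at 32.5 against 209, 125 against 158, 144 against 267 and 77.6 against 190 CPM (-1.28 ± 0.20, edgeR adjusted p = 3.7e-07). Cd40lg was lower in 4 of 4 libraries. For Il2 the 0 in each young library lies under the floor of 3 counts, 24.4 and 62.4 CPM, and 2 and 4 UMIs were found in the aged ones, so a lower level was not detectable in the young libraries. Tnfsf8 (CD153) was at 32.5 against 26.0, 0 against 36.6, 66.9 against 161 and 20.7 against 171 CPM (-1.67 ± 0.26), lower in both aged libraries, with the 0 of the young choroid plexus under its floor, and DESeq2 did not call it (adjusted p = 0.14). Gzmk was at -3.72 ± 0.33 (-2.76 without the aged meninges) and lower in both aged libraries, with 0 and 1 UMIs in the young ones. Ccl5, at -1.36 ± 0.17, was lower in 3 of 4 libraries. Both were called by edgeR and not by DESeq2. Pde3b and Themis fell in 4 of 4 libraries, and Il7r, which is in both lists, was the eighth. Interleukins 4, 5, 13, 17a, 21 and 22 and Csf2 did not pass the filter on low counts, and of these Il17a and Csf2 were called lower without it.

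Among receptors and integrins of trafficking, 15 of 23 were tested, 5 were higher (background 1.99%) and 3 lower (1.96%), with a median of 0.05. DESeq2 called 2 higher and 2 lower, and without the aged meninges 0 were higher and 2 lower by edgeR. The higher genes were 3 without the young meninges and 2 without the aged choroid plexus. Ccr4 (a receptor of skin and inflamed tissue homing) rose by 1.80 ± 0.35, Itgav (an integrin chain that can activate TGF-beta) by 1.35 ± 0.24, Gpr15 by 2.09 ± 0.66, Cxcr4 by 1.0 ± 0.24 and Ccr8 as above, while Ccr7, Cxcr6 (-1.12 ± 0.19) and Gpr183 (-0.76 ± 0.22) were lower, all by edgeR. Of the 12 cell cycle genes, 8 were tested and Birc5 was called higher (background 1.99%), at 0.98 ± 0.31 (edgeR adjusted p = 0.049). It was not called by DESeq2, after the doublet calls of Scrublet were removed, or without either choroid plexus library or the aged meninges. In the 2 aged libraries alone, an alternative added after seeing the data, 5 of 11 were higher (background 2.57% in that fit; Ccna2, Ccnb2, Birc5, Mki67 and Stmn1). For Foxp3-positive cells with a Cd4 UMI, 3 of 7 were higher (Birc5, Mki67 and Stmn1), with a median of 1.08 against -0.09 over all genes. In that fit 52 of 6544 genes were higher. The UMIs of Birc5 came from 3 of 126 cells in the aged meninges and 1 of 48 in the aged choroid plexus. The plot of the lists shows the fold change of each tested gene.

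**Figure D3:**
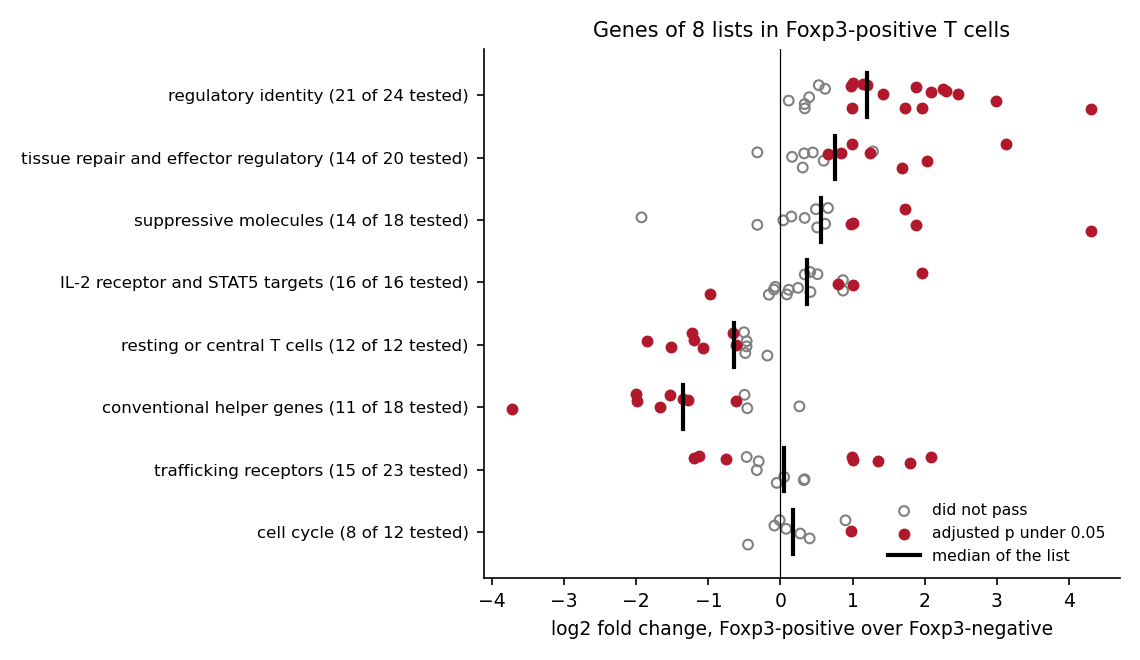
Log2 fold change of Foxp3-positive over Foxp3-negative cells (edgeR, library as block) for the tested genes of 8 lists, with 1 point per gene, filled where the adjusted p was under 0.05, and a black bar at the median of each list. Regulatory identity has 15 filled points to the right and a median of 1.20, conventional helper genes have 8 to the left and a median of -1.36. Genes in 2 lists appear in both.

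By the rule for naming, the genes with the largest positive fold changes beyond the lists above were Cd74, Rln3 (relaxin 3), Bicd1, Epcam (a cell adhesion molecule), Sdc4 (syndecan 4) and Irf8. Rln3 was at 138 against 5.21, 41.6 against 0.763, 22.3 against 8.12 and 51.8 against 4.57 CPM (3.19 ± 0.43, edgeR adjusted p = 3.43e-09), and Epcam at 56.8 against 5.21, 41.6 against 2.29, 71.8 against 13.2 and 36.2 against 8.48 CPM (2.51 ± 0.37). Both were above in all 4 libraries, with 2 UMIs each in the Foxp3-positive cells of the young choroid plexus. Without the young meninges Rln3 was at 2.36, and without the aged meninges at 4.19. Irf8 (a transcription factor of myeloid and B cells) was at 24.4 against 17.4, 0 against 3.82, 71.8 against 14.9 and 129 against 9.78 CPM (2.27 ± 0.34), with 22 of its 29 UMIs in the aged meninges in 1 cell, and was not called without the aged choroid plexus (adjusted p = 0.061). The largest negative fold changes belonged to Klrd1 and Nkg7 (genes of cytotoxic and natural killer cells), Gzmk, Hbb-bs, Il2, Pde3b, Sema4a, Tdrp, Dhx29, Hs3st3b1, Pgrmc2 and Zadh2. None of these was called by DESeq2, which gave no adjusted p for Klrd1, Il2, Dhx29, Hs3st3b1, Pgrmc2 and Zadh2. Nkg7 was at 32.5 against 239, 229 against 180, 161 against 749 and 56.9 against 444 CPM, so it was lower in 3 libraries and not in the young choroid plexus, with a log2 fold change of -2.28 ± 0.20 by edgeR, not called by DESeq2 (adjusted p = 0.066). Klrd1 (-4.43 ± 0.80) rests on 1 UMI over all Foxp3-positive cells, Dhx29 (-2.71 ± 0.80) on 2, Hs3st3b1 on 3, Pgrmc2 on 4 and Tdrp and Zadh2 (-1.99 ± 0.57) on 5 each, so their fitted values give no size of the difference. Dhx29, Hs3st3b1, Pgrmc2 and Zadh2 each lost their call in 3 of the 4 fits that leave out a library, Sema4a in 2 and Tdrp in 1.

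Markers of other cell types were measured beside these results. No UMI of the natural killer markers Ncr1, Klrb1c, Klra4 and Klra8 was found in any Foxp3-positive cell. The summed level of hemoglobin genes was lower in Foxp3-positive cells where they were present, 24.4 against 324 CPM for the 4 red cell genes in the young meninges and 84.2 against 363 in the aged meninges, with Hbb-bs the most abundant. By share of cells they were not lower: a hemoglobin UMI was found in 6.25% of Foxp3-positive and 6.17% of Foxp3-negative cells of the young meninges and in 23.0% and 16.8% of those of the aged meninges. Fibroblast markers came to 1 UMI in all 217 cells, the 4 choroid epithelium markers to 0, Cldn5 and Cdh5 of the endothelium to 0, while Pecam1, the third endothelial marker, was found in 5, 1, 6 and 1 cells, and gamma-delta T-cell markers were found in 2 cells of the young meninges and 1 of the aged choroid plexus. Of the B-cell markers, Cd79a was at 0 in Foxp3-positive cells of all 4 libraries and Ms4a1 had 1 UMI in all. Ighm, however, was found in 19 of 32, 7 of 11, 86 of 126 and 34 of 48 Foxp3-positive cells, at 438 against 229, 354 against 226, 434 against 132 and 388 against 162 CPM, higher in 4 of 4 libraries (1.11 ± 0.15, edgeR adjusted p = 4.4e-09). Ighm was singled out after its values were seen.

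The 7 macrophage markers were found in 0 of 32, 0 of 11, 2 of 126 and 2 of 48 Foxp3-positive cells, summed to 0, 0, 69.4 and 719 CPM. In the aged choroid plexus 138 of their 139 UMIs lay in 1 cell, and Lyz2 was their most abundant gene, with 42 UMIs. Cd74 (the invariant chain of MHC class II) was at 114 against 42.1, 0 against 19.8, 991 against 70.0 and 875 against 58.1 CPM, but 284 of its 400 UMIs in the aged meninges and 94 of 169 in the aged choroid plexus came from 1 cell each. When the 8 and 6 Foxp3-positive cells and the 7, 8, 38 and 11 Foxp3-negative cells with a UMI of a macrophage marker, H2-Aa, H2-Ab1, H2-Eb1 or a B-cell gene such as Cd79a or Ms4a1 were left out, a choice made after seeing the data, Cd74 stood at 266 against 34.3 CPM in 40 of 118 cells of the aged meninges and at 387 against 25.4 in 21 of 42 cells of the aged choroid plexus. It was called by edgeR with and without these cells, at 3.19 ± 0.20 and 3.27 ± 0.21, and not by DESeq2 (adjusted p = 0.52). Irf8 then stood at 19.8 against 14.4 CPM in the aged meninges and 143 against 9.37 in the aged choroid plexus (1.80, edgeR adjusted p = 0.0079). Leaving out these cells of both classes gave 126 higher and 110 lower genes, of which 119 and 108 were among the original calls, and Birc5 was no longer called.

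A further set of lower genes, seen only after the fit, were those of cytosolic ribosomal proteins. Of 81 such genes, 49 were lower (background 1.96%) and none higher, with a median log2 fold change of -0.37 against -0.01 over all genes. With library sizes alone the median was -0.21 against 0.11 over all genes, with 36 lower and 1 higher. DESeq2 called 23 lower, and edgeR 1 without the aged meninges, 9 without the aged choroid plexus and 22 without the young meninges. At 1000 UMIs per cell 1 of 80 was lower (median -0.45), and in cells of 1500 to 5000 UMIs 7 of 81 (median -0.58). Against Foxp3-negative cells with no Ccr7 UMI, the median was -0.20 and none of the 81 was called. The resting state of the cells compared moved with this result, and its part in it was not tested.

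The third question was whether the difference between Foxp3-positive and Foxp3-negative cells itself depended on age or tissue. The interaction with age passed for 26 of 7079 genes (0.367%) and that with tissue for 6 (0.0848%) by edgeR, with 403 and 260 genes at an unadjusted p under 0.05. These fits have 2 residual degrees of freedom. The libraries of both tissues stand in them as replicates of an age, and those of both ages as replicates of a tissue. DESeq2 gave 5 and 0 genes, with 95 and 38 at an unadjusted p under 0.05. Receptor variable genes made up 5 of the 26 and 4 of the 6, and the other 2 tissue genes were Ccl4 and Gzma. Among the markers, the difference was larger in the young than in the aged libraries for Ctla4 (-1.97 ± 0.36, edgeR adjusted p = 0.00013), Tnfrsf4 (-1.43 ± 0.28, 0.00080) and Ikzf2 (-1.31 ± 0.32, 0.022), where the value is the log2 difference in the aged minus that in the young. For these genes the Foxp3-negative cells stood higher in the aged libraries, as the levels above show: Ikzf2 was at 35.6 and 17.6 CPM in the young and at 180 and 179 CPM in the aged Foxp3-negative cells.

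S100a6 (a calcium-binding protein of activated cells) had the smallest p of the age interactions (-2.10 ± 0.24, edgeR adjusted p = 3.5e-11). It was at 991 against 263 CPM in the young meninges, 1747 against 416 in the young choroid plexus, 1519 against 1697 in the aged meninges and 1527 against 1965 in the aged choroid plexus. Foxp3-positive cells were thus above in both young and below in both aged libraries. S100a6 was singled out after its values were seen. Klrg1 (-3.02 ± 0.51, adjusted p = 2.0e-05) had the same direction, with the values given above. For Areg neither interaction passed (adjusted p = 0.58 for age and 1.0 for tissue).

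The fourth question was how Foxp3-positive cells of the aged meninges differed from those of the aged choroid plexus. With 1 library each, there is no test, and genes were called by size: at least 20 UMIs in the library where they were higher and a ratio of CPM + 10 of at least 2-fold. Of 2946 genes compared, 165 were higher in the aged meninges (5.6%) and 24 lower (0.815%). As the meningeal cells were summed to more UMIs (403653 against 193195), 20 UMIs is a lower level there (49.5 against 104 CPM). With both sums at 193195 UMIs, 85 were higher and 34 lower of 1621.

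The genes highest in the aged meninges by this rule were Dusp1 (a phosphatase of MAP kinases; log2 ratio 4.03), Fos (a component of AP-1; 3.98), Ppp1r15a (3.87), Areg (3.58) and Nr4a2 (3.17). Dusp1 was at 1417 CPM (572 UMIs, exact Poisson interval of the level 1303 to 1538) against 77.6 (15 UMIs) and Fos at 639 against 31.1 CPM. Fos, Dusp1 and Nr4a2 are immediate early genes, known to respond quickly to signals and to handling of cells. The Foxp3-negative cells of the same libraries showed ratios of 3.51 for Dusp1, 3.68 for Fos, 2.23 for Ppp1r15a, 3.01 for Areg and 2.79 for Nr4a2, so both classes differed the same way between these libraries. Whether it arose in the tissue or in cell preparation cannot be told apart with 1 library each.

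Over the 154 higher genes that are not receptor, immunoglobulin, mitochondrial or ribosomal protein genes or gene models without a name, the median log2 ratio was 1.35 in Foxp3-positive and 0.35 in Foxp3-negative cells, and 48 of them were at least 2-fold higher in Foxp3-negative cells as well. These genes were chosen on their ratio in Foxp3-positive cells, which sets the larger median there. No difference between the classes is read from the 2 medians. The genes lowest in the aged meninges, and so highest in the choroid plexus, were Apoe (-4.23), C1qa (-3.80), C1qb (-3.26), C1qc (-2.58) and Lyz2 (-2.27), genes of macrophages. All 70 UMIs of Apoe, all 25 of C1qa and 41 of the 42 of Lyz2 in the aged choroid plexus were in 1 cell each. Without the cells that carried macrophage, class II or B-cell genes, 172 genes were higher and 19 lower, and Apoe was at 0 in both. The other choroid plexus genes included Penk (-1.27), at 378 against 151 CPM, which was also lower in the meninges in Foxp3-negative cells (-1.04). The plot of both ratios shows the genes.

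**Figure D4:**
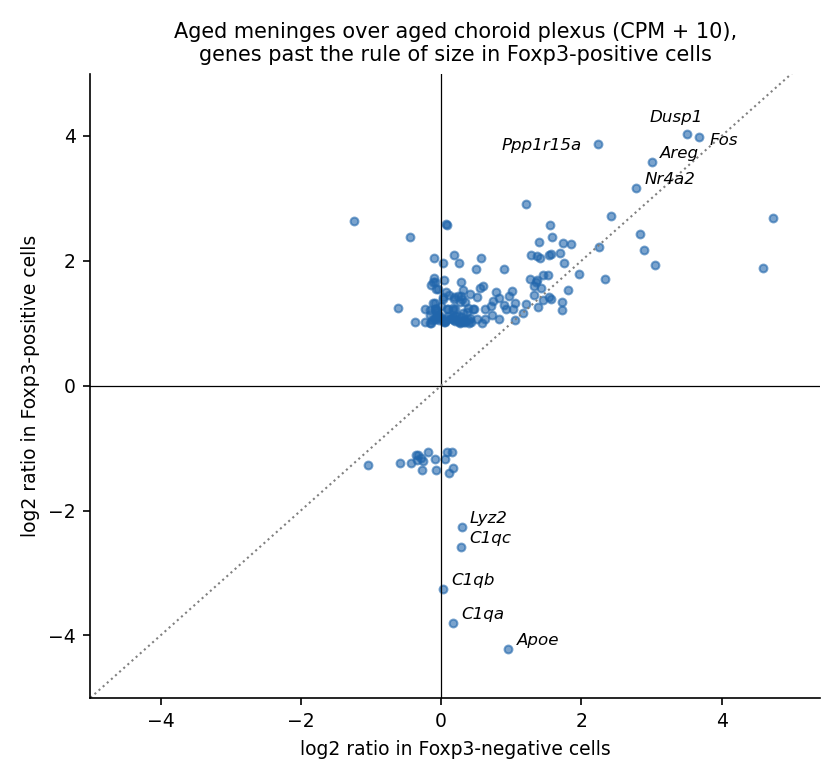
Log2 ratio of aged meninges over aged choroid plexus in Foxp3-positive cells (vertical) against that in Foxp3-negative cells (horizontal), for genes past the rule of size in Foxp3-positive cells, with the dotted line at equal ratios. Dusp1, Fos, Areg and Nr4a2 are high on both axes, and the macrophage genes at the bottom are low on the vertical axis only. There are no replicates.

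Aged and young meningeal Foxp3-positive cells were set side by side by the same rule, a comparison added after the number of cells was seen. Of 2941 genes, 323 were higher in the aged (11%) and 36 lower (1.22%), and with the aged sum thinned to 123155 UMIs, cells not matched, 90 and 34 of 1014. Areg was the gene with the largest ratio, 979 against 0 CPM. H2-Ab1, H2-Aa and H2-Eb1, genes of MHC class II, and the histone gene Hist1h2ap (855 against 40.6 CPM) followed, and 118 of 120, 111 of 113 and 55 of 61 UMIs of the class II genes were in 1 cell each, as were 191 of the 345 of Hist1h2ap. Among the lowest were Ly6c1 (4.95 against 187 CPM), Ccr7 (37.2 against 252), Klrg1 (86.7 against 390) and Lef1 (66.9 against 276). Ccr7 and Lef1 mark T cells that recirculate. In Foxp3-negative cells of the same libraries the log2 ratios were -2.12 for Ly6c1, -2.77 for Ccr7 and -2.39 for Lef1, beside -3.72, -2.47 and -1.90 in Foxp3-positive cells. Klrg1 went the other way in Foxp3-negative cells, at 0.62 against -2.05. Areg was higher in the aged in Foxp3-negative cells as well, at 249 against 14.7 CPM (log2 ratio 3.39). Over the 309 higher genes outside the kinds left out above, the median log2 ratio was 1.40 in Foxp3-positive cells, on which they were chosen. It was 0.42 in Foxp3-negative cells, where 59 were at least 2-fold higher too.

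Because Areg divided the cells of the aged meninges, the 61 Areg-positive and 65 Areg-negative Foxp3-positive cells of that library were compared, also a choice made after seeing the data. They come from 1 library, so there is no test. By the rule of size 44 of 1713 genes were higher (2.57%) and 54 lower (3.15%) in Areg-positive cells, whose median was 2710 against 2157 UMIs. Ikzf2 was found in 59 of 61 Areg-positive cells (96.7%, 88.7 to 99.6%) and in 48 of 65 Areg-negative cells (73.8%, 61.5 to 84.0%), and at 1000 UMIs per cell in 61.0 against 39.7%. The intervals did not overlap at full depth. Tnfrsf4 was found in 73.8% of both.

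Among the other genes of tissue repair, Klrg1 was found in 16 of 61 against 6 of 65 cells, Ccr8 in 15 against 4, and Penk in 9 against 1. Penk reached 302 against 4.89 CPM, 60 UMIs against 1. The intervals of the 3 shares overlapped between the groups, those of Ccr8 barely. Gata3, at 34.4 against 35.4% of cells, Maf, at 55.7 against 56.9%, Batf, at 32.8 against 36.9%, and Il1rl1, at 14.8 against 10.8%, had intervals that overlapped widely. At 1000 UMIs per cell Batf was at 25.4 against 17.5%, Gata3 at 18.6 against 17.5%, Maf at 30.5 against 25.4% and Il1rl1 at 10.2 against 1.59%, so the order of Batf, Gata3 and Maf turned. Besides Penk, the rule of size put Cxcl10 (7 against 1 cells), Cxcl2 (8 against 2 cells), Jchain and Mt1 (a metallothionein, 10 against 2 cells) first, and 21 of the 22 Jchain UMIs were in Areg-positive cells but in 1 cell. Lowest in Areg-positive cells were Hist1h2ap, H2-Ab1, H2-Aa, Birc5 and Ly6c2. Birc5 and Hist1h2ap are genes of dividing cells, and the 40 Birc5 UMIs came from 3 Areg-negative cells. Among Areg-negative cells, 1 cell held 191 of the 339 Hist1h2ap UMIs, and 1 cell held 23 of the 33 of Ly6c2. The plot of the shares shows the list genes and markers.

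**Figure D5:**
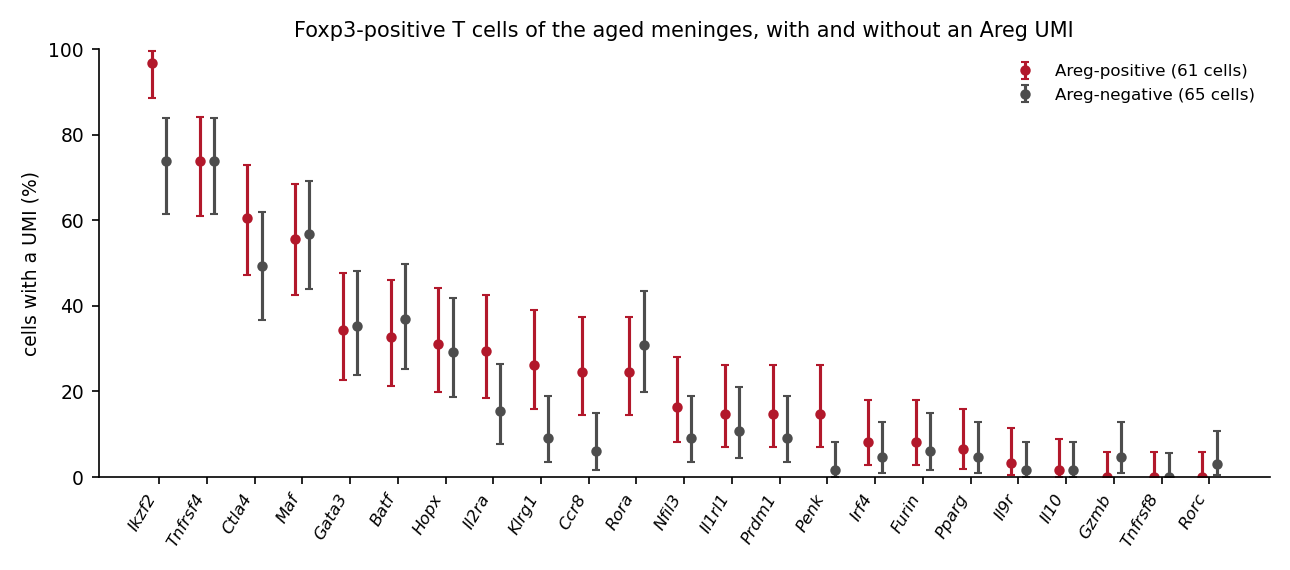
Percentage of Foxp3-positive cells of the aged meninges with a UMI of each gene, in 61 Areg-positive (red) and 65 Areg-negative (grey) cells, with 95% Clopper-Pearson intervals, for the genes of the tissue repair list and 4 markers. Ikzf2 reaches 96.7 against 73.8%, and Klrg1, Ccr8 and Penk lie higher in Areg-positive cells, while Tnfrsf4 and Maf lie close together.

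Areg-positive cells without a Foxp3 UMI carried regulatory markers too. In the aged meninges, at least 2 of Ikzf2, Il2ra, Ctla4 and Tnfrsf4 were found in 59 of 133 Areg-positive Foxp3-negative cells (44.4%, 35.8 to 53.2%) and in 155 of 838 Areg-negative ones (18.5%, 15.9 to 21.3%), at medians of 2083 and 2151 UMIs. The share was 86.9% in Areg-positive Foxp3-positive cells. Whether these Foxp3-negative cells express Foxp3 below detection was not tested.

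The T-cell receptor beta variable genes of the Foxp3-positive cells were mixed. Among cells with a Trbv UMI, the most frequent gene was Trbv3 in 8 of 29 cells of the young meninges (27.6%, 12.7 to 47.2%) and 3 of 9 of the young choroid plexus, Trbv13-2 in 12 of 104 of the aged meninges (11.5%, 6.11 to 19.3%) and Trbv16 in 7 of 43 of the aged choroid plexus (16.3%, 6.81 to 30.7%). There were 12, 7, 19 and 14 different Trbv genes. In Foxp3-negative cells Trbv13-2 was the most frequent in all 4 libraries, at 13.9, 9.68, 12.4 and 16.7%. No order of clonality is read from these shares, since whole receptor sequences were not used here.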

How the data were processed

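The matrices deposited by the authors hold unnormalized UMI counts, made with Cell Ranger. The file headers give version 3.1.0, while the submitters' notes give 5.1.0, with STAR and mm10. Cells were filtered and classed by the rule given above, and 4 libraries were analysed, with groups taken from the sample labels. The members, the gene lists and the tests were chosen with earlier results of these data known. UMIs were summed per library and class and tested with edgeR 4.0.16 (filterByExpr, TMM, quasi-likelihood, library as block). Alternatives were DESeq2 1.42.0, other normalizations, filters, gates and libraries left out. The scripts were tested on simulated data. CPM scales a gene's UMIs to the class sum, and ratios added 10 CPM. Thinning kept a random 1000 UMIs of each cell and left out shallower ones. Scrublet (scanpy 1.11.5) marked 16, 22, 0 and 5 cells and no Foxp3-positive cell. It marked none of 1436 cells of the aged meninges, so it did not work there and doublets can remain. Named genes were the markers and lists, the 12 largest and 12 smallest log2 fold changes among called genes with that sign in both aged libraries, and the 5 largest and 5 smallest ratios between the aged tissues, without receptor, immunoglobulin, mitochondrial, ribosomal protein and unnamed genes. Other genes are marked as chosen after their values were seen, or belong to the comparisons added later. Coordinates are from GENCODE vM21 (GRCm38) and promoter sequences from RefSeq (GRCm38.p6). Values of some genes are not reported here.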

Additional observations from a re-analysis of the deposited data

Results flagged for a closer look

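A difference between Foxp3-positive and Foxp3-negative cells that itself depended on age, by edgeR's interaction test with an adjusted p under 0.05, was found for 13 of 112 tested genes of the lists and named genes (11.6%), beside 0.367% of all genes tested. The named genes were chosen on other values of the same profiles, so nothing is read from this share. The values are log2 differences in the aged minus the young libraries. They were negative for Ccl5 (-2.25), Klrg1 (-3.02), Ctla4 (-1.97), Cxcr3 (-1.48), Tnfrsf4 (-1.43), Cish (-1.43), Ikzf2 (-1.31) and Capg (-1.29). The value was positive for Stmn1 (2.27). The fitted values of Gzmb (-5.97), Birc5 (9.10), Cd74 (2.77) and Penk (-2.48) come with profiles that hold no UMI and give no size of the difference. The UMIs of Cd74 and Birc5 in Foxp3-positive cells lay largely in 1 to 3 cells of each aged library. For Penk the young choroid plexus had no UMI in either class, and for Cd74 none in Foxp3-positive cells. In the young libraries all of these rest on 32 and 11 Foxp3-positive cells. No group had the 4 samples needed to look for outlying samples.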

How the results depend on the processing

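Over 28 named genes and 16 alternatives, 384 values came from genes that were still tested, and none of them reversed direction. At 1000 UMIs per cell 8 of the 28 genes were tested, and against Foxp3-negative cells with a Cd4 UMI 13. Most of the 28 were picked for their fold changes in the main fit of the same libraries. Nothing is therefore read from the lack of reversals. The call was kept by 330 and lost by 54, 16 of these with DESeq2. DESeq2 gave no adjusted p to 2059 of 7079 genes. Among them were Lrrc32, Bicd1, Klrd1, Dhx29, Hs3st3b1, Il2, Pgrmc2 and Zadh2, which are counted here as lost. Their log2 fold changes stayed about as large, at 4.49 against 4.31 for Lrrc32. The counts of higher and lower genes (141 and 139) became 52 and 42 with DESeq2, 89 and 88 against Foxp3-negative cells with a Cd4 UMI, 52 and 56 for cells with a Cd4 UMI, 37 and 23 at 1000 UMIs per cell, and 79 and 57 in cells of 1500 to 5000 UMIs, an alternative added after seeing the data. Requiring 2 Foxp3 UMIs left 57 higher genes, no filter on low counts gave 212 lower, and a reference without Ccr7 left 46 lower. Leaving out 1 library at a time gave 49 to 136 higher and 28 to 137 lower genes. Age and tissue interactions fell from 26 and 6 genes to 5 and 0 with DESeq2. Shares with a Foxp3 UMI were 1.63, 0.685, 6.29 and 3.48% at 1000 UMIs and 1.88, 0.680, 4.74 and 2.72% when 2 Foxp3 UMIs were required (young meninges and choroid plexus, then aged). With a Cd4 UMI required the young meninges fell to 2.69%. The comparisons by size gave 53 and 8 (aged tissues), 104 and 18 (aged and young meninges) and 25 and 33 genes (Areg) with 50 CPM added, and 342 and 81, 692 and 106, and 166 and 171 with 10 UMIs. With the deeper sum thinned to the UMIs of the shallower, which matched neither cells nor UMIs per cell, the first 2 gave 85 higher and 34 lower and 90 higher and 34 lower genes, and at 1000 UMIs per cell the Areg comparison gave 20 and 19. The causes of these changes were not tested, apart from fewer cells or genes where an alternative leaves some out. No paired analysis was possible because each condition has 1 library, beyond the pairing of both classes within a library, which every fit has as its block.

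Few Foxp3-positive cells limit the young libraries, where 48082 UMIs in the choroid plexus make 3 counts equal to 62.4 CPM. Libraries, conditions and mouse pools cannot be told apart.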
